A study of Arabidopsis thaliana with 4 samples.

Results

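The array carried 5 genes tied by annotation to jasmonate synthesis, to jasmonate hydroxylation and to the transfer of methyl groups, each as 1 cDNA clone printed in 2 spots. They were found by gene name and clone number and make up 5 of 415 named clones and 5 of 1182 cDNA clones in all. The genes are OPCL1 (AT1G20510), AT5G05600, AT2G38240, JMT (AT1G19640) and FAMT (AT3G44860). Fed plants were 21-day-old soil-grown Arabidopsis thaliana of the wild-type accession Col-0, each given 25 adult female western flower thrips that had been starved for 3 h, and they were frozen after 2, 5, 10 or 24 h of feeding. Untreated plants were Col-0 of the same age without insects, and all plants grew at 22 °C with 16 h of light and 8 h of dark. Each time had 1 two-colour array, with fed plants in the red Cy5 channel and untreated plants in the green Cy3 channel. The labels describe the tissue both as leaves and as the whole plant without roots. They put 30 to 70 plants in a sample and pooled 3 to 4 experiments before RNA extraction, so no array stands for a single plant, and whether the arrays shared untreated RNA is not stated.

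Jasmonates are lipid-derived hormones that plants make after wounding and insect attack. Their synthesis begins in the plastid and ends in the peroxisome, where the side chain of a precursor is activated with coenzyme A and shortened. Jasmonic acid is then joined to isoleucine to give the form that the receptor binds, or it is drawn off by hydroxylation, which gives an inactive product, or by methylation, which gives volatile methyl jasmonate. OPCL1 activates the precursor, AT5G05600 and AT2G38240 encode jasmonate-induced oxygenases (JOX2 and JOX4) that hydroxylate jasmonic acid, and JMT makes methyl jasmonate. FAMT belongs with JMT to the SABATH family of methyltransferases, but its known substrate is farnesoic acid, so it is grouped here by family and not by a known step of jasmonate making or breakdown.

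OPCL1, AT5G05600 and FAMT rose in fed plants over the 4 arrays, by 3.51-fold, 22.0-fold and 12.7-fold on average. AT2G38240 had a measured mean 2.42-fold higher in fed plants, over untreated spots not above background, and did not pass the test. JMT had a usable ratio on 1 array alone, so it has no mean. Of the 4 genes with a mean, 3 were called higher, where 22.6% of the 806 clones tested were called higher and 47.0% were called in either direction (limma with eBayes over the 4 arrays, Benjamini-Hochberg adjusted p under 0.05). In these bulk samples, fewer cells of a type and less RNA per cell cannot be told apart. The spread behind each test is the one between arrays of different feeding times.

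The 4 arrays gave usable ratios for 718, 857, 739 and 718 clones at 2, 5, 10 and 24 h. Over usable clone spots the median foreground intensity lay between 1325 and 2063 scanner units in fed plants and between 895 and 1150 in untreated plants. The SD between the 2 spots of a clone had a median of 0.10 to 0.12 log2. Of 26 negative control spots, 0 were usable on each array. Of 12 genes listed as leaf markers, 1 was named on the array, AT2G45180, which was above background in both channels at every time and fell by 2.05 log2 in fed plants (limma adjusted p = 0.00330). Of 10 genes listed as root markers, 5 were named and 3 could be tested. BGLU21 had a mean of 0.75 log2 over 3 arrays (limma adjusted p = 0.0418), with untreated plants not above background on any of them, while PYK10 averaged 1.13 (limma adjusted p = 0.0930) and BGLU22 0.80 (limma adjusted p = 0.139).

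OPCL1, the 4-coumarate-CoA ligase-like enzyme that activates the jasmonate precursor, was above background in both channels at every time. At 2 h its spots read 2584 and 2041 scanner units in fed plants, against 534 and 644 in untreated plants. At 5 h they read 8789 and 5245 in fed plants, against 1386 and 1144 in untreated plants. The fed spots lay above the untreated spots on both arrays, and the 5 h spots differed more between themselves than those of the later arrays. At 10 h the fed spots read 4821 and 4757, against 756 and 770 in untreated plants. At 24 h they read 2917 and 2934 in fed plants, against 869 and 904 in untreated plants. The channels did not overlap on any array.

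At 2, 5, 10 and 24 h the normalized log2 ratios of OPCL1, fed over untreated, were 1.86, 1.75, 2.15 and 1.49, and its spots varied around them with SDs of 0.45, 0.34, 0.05 and 0.04. These values lie close together: their SD over the arrays was 0.27, and OPCL1 ranked between 58 and 87 from the top at each time. The mean was 1.81 ± 0.19 (moderated SE, 4 arrays, limma adjusted p = 0.000649), which ranked 63 of 806 clones. On the first slide, with the 2 h and 5 h arrays, the mean was 1.80, and on the second slide, with 10 h and 24 h, it was 1.82.

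**Figure D1:**
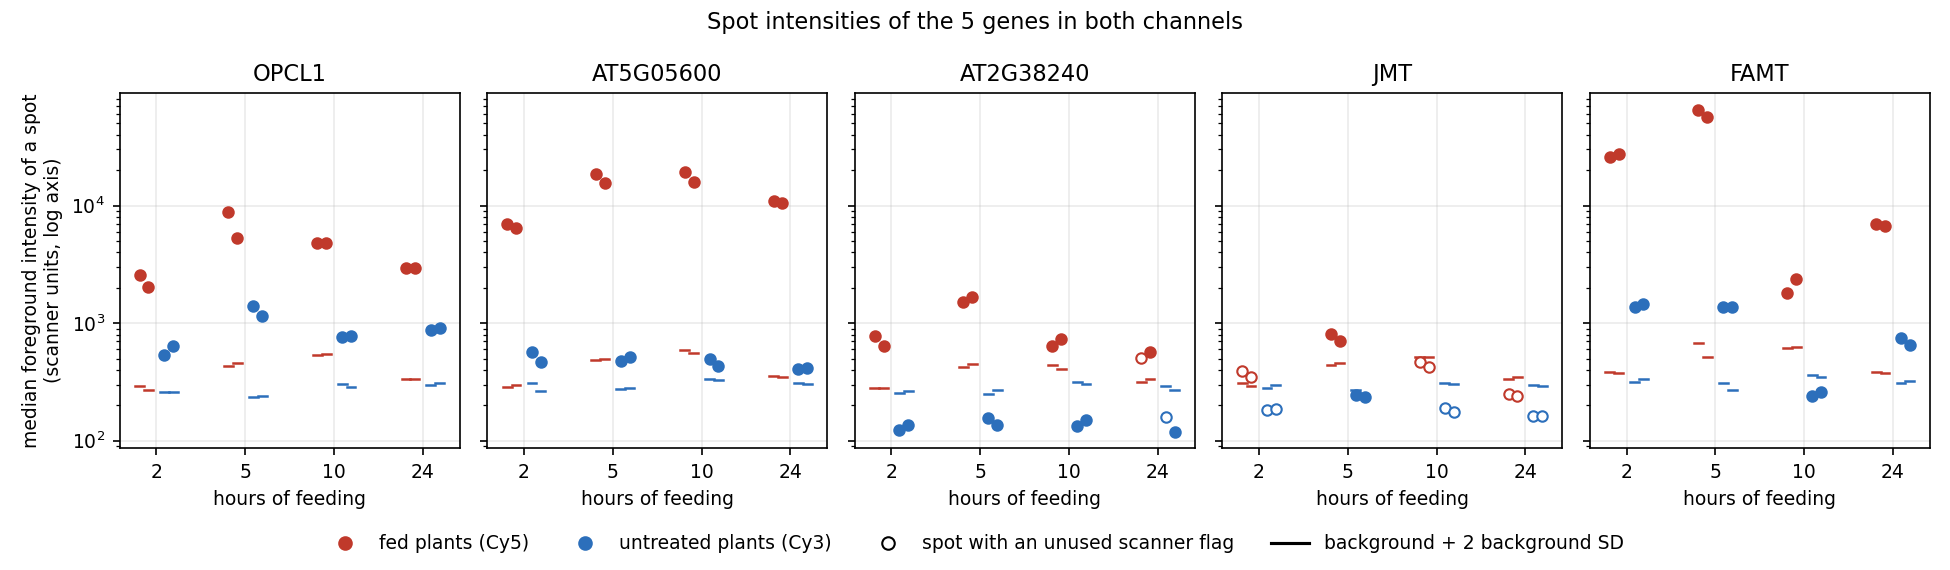
Median foreground intensity of each spot of the 5 genes (scanner units, log axis) against hours of feeding, with fed plants in red left of untreated plants in blue. Open circles are spots whose scanner flag was not used and short lines are the background plus 2 background SD of that spot: the untreated spots of AT2G38240 and JMT lie below their lines at every time, while those of OPCL1 and AT5G05600 lie above them.

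AT5G05600 had the highest mean of all 806 clones tested, and both of its channels were above background at every time. Its spots read 6972 and 6476 scanner units in fed plants at 2 h, against 564 and 468 in untreated plants. At 5 h they read 18625 and 15658 in fed plants, against 479 and 520 in untreated plants. The fed spots lay far above the untreated spots on both arrays. At 10 h the spots read 19290 and 15894 in fed plants, against 500 and 431 in untreated plants. At 24 h they read 10971 and 10516 in fed plants, against 407 and 415 in untreated plants. Foreground intensities of different arrays also carry the detector gain, which was 58, 65, 60 and 60 for Cy5 over the 4 times and 69 for Cy3 throughout, so times are compared only through the normalized ratios.

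Those ratios corresponded to 13.2-fold, 23.9-fold, 28.4-fold and 26.2-fold higher levels in fed plants at 2, 5, 10 and 24 h. AT5G05600 ranked 3, 1, 3 and 4 from the top among the clones measured at each time. Its SD over the arrays was 0.50 log2, and its mean was 4.46 ± 0.24 (moderated SE, 4 arrays, limma adjusted p = 8.47e-05). The slide means were 4.15 on the first slide and 4.77 on the second.

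AT2G38240, the other jasmonate-hydroxylating oxygenase, was above background in fed plants alone. Its spots read 780 and 635 scanner units in fed plants at 2 h, against 123 and 137 in untreated plants. At 5 h they read 1511 and 1658 in fed plants, against 155 and 135 in untreated plants. The fed spots lay well above the untreated ones, and untreated plants were not well above background at these or at the later times. At 10 h the spots read 645 and 729 in fed plants, against 134 and 149 in untreated plants. At 24 h the 1 usable spot read 567 in fed plants, against 119 in untreated plants.

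Because untreated plants gave only a bound, the fed level of AT2G38240 is given as at least 1.72-fold higher for the 2 h array and at least 4.29-fold higher for the 5 h array. A bound of this kind sets the fed level against the dimmest signal that was still above background in the untreated channel of that array, or against the clone's own untreated signal where that was higher. No fold is given at 10 h and 24 h, where that bound was under 1. The measured log2 ratios were 1.49, 3.06, 0.19 and 0.37 at 2, 5, 10 and 24 h, and the spot SDs of the first 3 times were 0.48, 0.32 and 0.30. These ratios ranked 84, 26, 303 and 253 from the top, so the gene stood among the higher clones at 5 h and near the middle at 10 h and 24 h.

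Before loess the ratios of AT2G38240 lay closer together over the times. The log2 ratios of its spots before loess were 3.11 and 2.56 at 2 h, 3.69 and 4.20 at 5 h, 2.65 and 2.80 at 10 h, and 2.36 for the usable spot at 24 h. Loess, which subtracts the ratio typical of spots of the same brightness, took 2.66 and 2.40 from the spots at 10 h but 0.86 and 0.92 at 5 h. With median centring in its place, which takes 1 value from all spots of an array, AT2G38240 stood at 2.86, 3.21, 2.02 and 2.03 at 2, 5, 10 and 24 h.

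The mean of AT2G38240 was 1.28 ± 0.46 (moderated SE, 4 arrays, clone ratio above 0 on 4 of 4, limma adjusted p = 0.0585). At 10 h its 2 spots lay on both sides of 0, at -0.02 and 0.40. The clone entered the test through its fed channel alone. Its means and p-values under every setting therefore rest on untreated signals that were not above background. The call depends on the processing: with median centring the mean was 2.53 (limma adjusted p = 0.000254), and with all spot flags kept it was 2.58 (limma adjusted p = 0.000823). With slide as a block the mean stayed at 1.28 and passed (limma adjusted p = 0.00322). On the first slide alone the mean was 2.27 (limma adjusted p = 0.0322), and on the second slide alone 0.28 (limma adjusted p = 0.527). Without the 24 h array it was 1.58 (limma adjusted p = 0.0418), and without the 5 h array 0.68 (limma adjusted p = 0.168). Over all 20 alternatives the limma adjusted p ran from 1.43e-25, relative to lambda DNA, to 0.527. Relative to lambda DNA, the 4 genes with a mean all had the same moderated SE of 0.34. In the deposited table they all had 0.41. The small p-values of those 2 settings thus do not carry the spread of the single genes, AT2G38240 among them, and are not read as strength of evidence.

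JMT, the methyltransferase that forms methyl jasmonate, had usable spots on the 5 h array alone. There its spots read 802 and 702 scanner units in fed plants, against 243 and 235 in untreated plants. Untreated plants were not well above background on that array. The log2 ratio at 5 h was 0.69 with an SD between spots of 0.19, or 1.61-fold, and it ranked 223 of 857 clones. The untreated signal of JMT was higher than the dimmest one above background, so its bound is this ratio itself. Under the alternatives the ratio ran from 0.43 to 2.96. A change of this size did not reach the 2-fold used to count a clone at a single time.

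On the other arrays the scanner had flagged both spots of JMT and no ratio was taken. At 2 h those spots read 389 and 346 in fed plants, against 181 and 187 in untreated plants. Only the fed spots were above background, which was itself higher in Cy5 (191 and 178) than in Cy3 (110 and 114). At 10 h they read 467 and 421 in fed plants, against 189 and 174 in untreated plants, and at 24 h 251 and 241 in fed plants, against 163 and 161 in untreated plants. Neither channel was above background at 10 h or 24 h. The background at 24 h was 197 and 202 in Cy5, against 119 and 116 in Cy3. With all spot flags kept, the JMT log2 ratios were 0.99, 1.17, 0.48 and 0.01 at 2, 5, 10 and 24 h, with a mean of 0.66 ± 0.23 over 942 clones tested (moderated SE, limma adjusted p = 0.0497). JMT entered that test through its fed channel alone, at 2 h and 5 h. Its mean and p-value there rest on untreated signals that were not above background at any time, so they are not read as a call.

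FAMT, which methylates farnesoic acid, was far above background in fed plants at 2 h and 5 h. Its spots read 25926 and 27530 scanner units in fed plants at 2 h, against 1372 and 1458 in untreated plants. At 5 h they read 65449 and 56256 in fed plants, against 1370 and 1358 in untreated plants. The 5 h fed spots stood at or near the scanner's ceiling of 65535, with 50% and 45.2% of their pixels saturated, so the fed level there is a lower limit. Saturated fed pixels were also present at 2 h (6.3% and 1.6%) and at 10 h (8.4% and 11.5%), but not at 24 h. At 10 h the spots read 1806 and 2370 in fed plants, against 241 and 258 in untreated plants, which were not well above background. At 24 h they read 6925 and 6691 in fed plants, against 747 and 646 in untreated plants.

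FAMT had log2 ratios of 4.07, 4.51, 2.87 and 3.22 at 2, 5, 10 and 24 h, and its spot SDs were 0.02, 0.15, 0.28 and 0.13. FAMT ranked 1 and 2 from the top at 2 h and 5 h, then 33 and 19 at 10 h and 24 h. The 10 h array gave a bound of at least 5.80-fold higher levels in the fed channel. The spots at 10 h were read over a diameter of 150 µm, against a median of 100 µm, and the mean over their pixels was 16865 and 17948 in fed plants, against 528 and 520 in untreated plants. With mean pixel intensity in place of the median, the ratio at 10 h was 4.75 and the one at 5 h was 3.91, so the order of those times turned round. Some fed pixels were saturated at both times, so these fed means are lower limits. The mean over the arrays was 3.66 ± 0.30 (moderated SE, limma adjusted p = 0.000319), rank 7 of 806, with 4.29 on the first slide and 3.04 on the second.

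**Figure D2:**
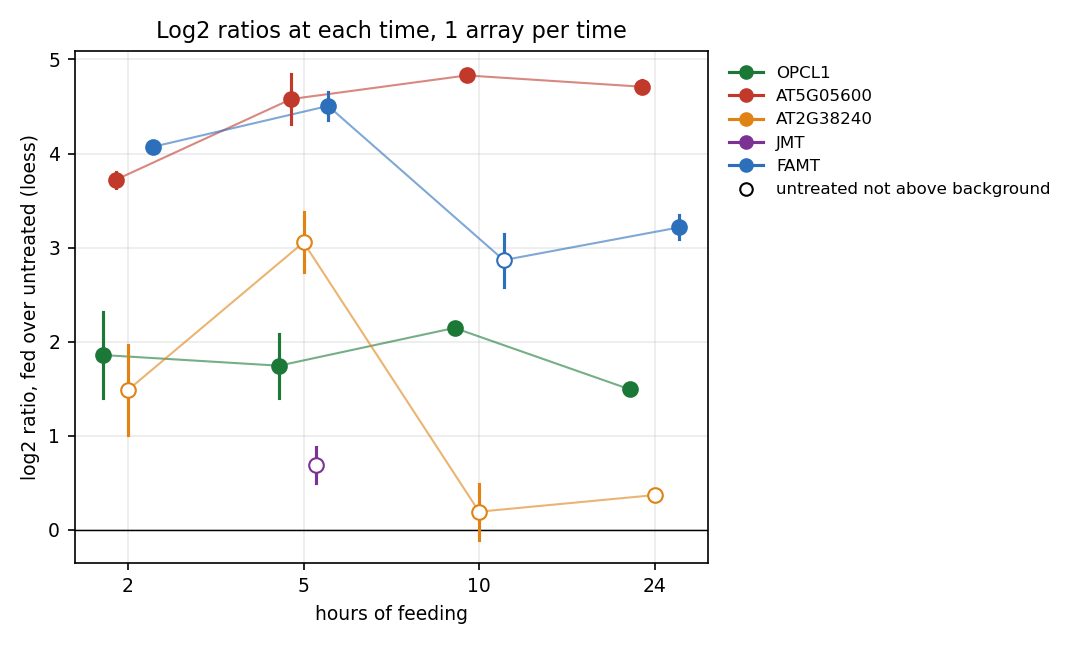
Normalized log2 ratio of fed over untreated plants (mean of the usable spots, bars are the SD between the 2 spots) against hours of feeding, 1 array per time. AT5G05600 stays between 3.72 and 4.83, OPCL1 between 1.49 and 2.15, and open circles mark ratios whose untreated spots were not above background, which include all values of AT2G38240 and JMT.

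At each time a clone was counted when its ratio reached 2-fold with all usable spots on the same side and the brighter channel above background. By that rule OPCL1, AT5G05600 and FAMT were higher in fed plants at all 4 times, AT2G38240 at 2 h and 5 h, and JMT at no time. The rule uses the measured ratio and not the bound, which for AT2G38240 at 2 h was 1.72-fold and so under 2-fold. Of all clones, 19.5%, 19.0%, 21.8% and 19.5% were counted higher at 2, 5, 10 and 24 h, and of the 607 clones with a ratio at every time, 70 or 11.5% were higher at all 4.

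**Figure D3:**
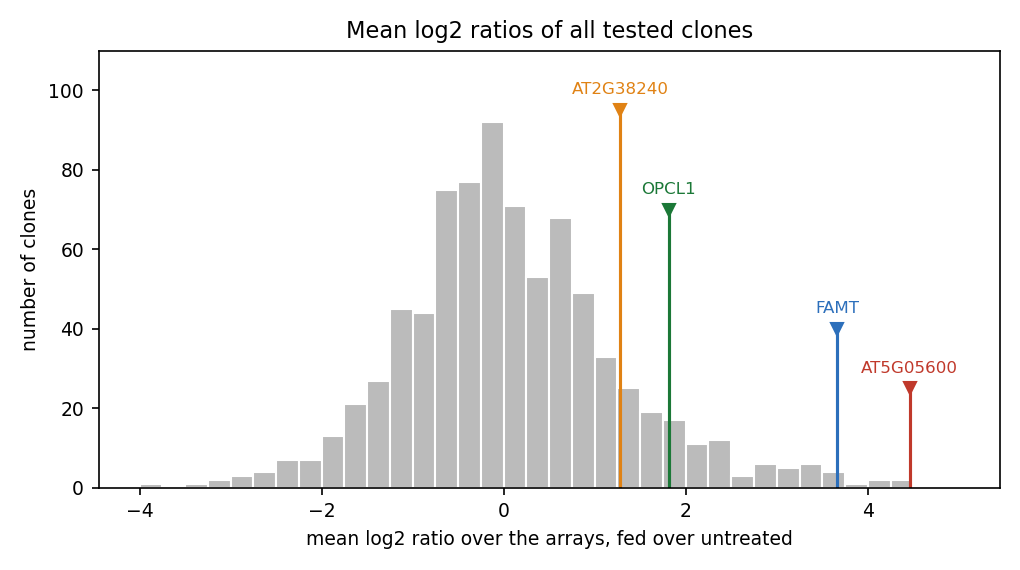
Histogram of the mean log2 ratio, fed over untreated plants, of the 806 clones tested (vertical axis: number of clones), with the means of the 4 genes that have one as coloured markers whose heights carry no value. AT5G05600 and FAMT lie in the right tail at 4.46 and 3.66, OPCL1 at 1.81 and AT2G38240 at 1.28, where the median clone lies at -0.04.

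None of the 4 genes with ratios on every array had a slope on the log2 of hours that passed the test. The slope per doubling of feeding time was -0.06 log2 for OPCL1 (limma adjusted p = 0.963) and 0.28 for AT5G05600 (limma adjusted p = 0.675). It was -0.49 for AT2G38240 (limma adjusted p = 0.738) and -0.34 for FAMT (limma adjusted p = 0.675). Of 716 clones with enough arrays, 0 or 0% were called by limma, and 67 had an unadjusted p under 0.05. Without the 24 h array 56 of 655 clones were called. The 4 genes passed in 0 of the alternatives tried.

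The genes were also set against each other as differences of log2 ratios on the same array, in 3 pairs. AT5G05600 exceeded AT2G38240, the other hydroxylase, by 2.23, 1.52, 4.64 and 4.34 log2 at 2, 5, 10 and 24 h, a mean of 3.18 (exact two-sided sign-flip permutation test over 4 arrays, p = 0.125, adjusted p = 0.125). OPCL1 lay below AT5G05600 on every array, by a mean of -2.65 (range -3.22 to -1.86, same exact permutation test, p = 0.125, adjusted p = 0.125). With 4 arrays 0.125 is the smallest p this test can give, so it could not reach 0.05. FAMT exceeded JMT by a measured 3.82 log2 at 5 h, which has no test and rests on limits on both sides: the fed spots of FAMT held saturated pixels, and untreated plants were not above background for JMT.

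The differences that involve AT2G38240 rest on a clone whose untreated spots were near background. With median centring the mean difference between AT5G05600 and AT2G38240 was 1.88, and that between OPCL1 and AT5G05600 was -2.62. Over the 4 arrays the root mean square difference of log2 ratios was least between AT5G05600 and FAMT, at 1.25, and largest between AT5G05600 and AT2G38240, at 3.45.

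Among the 175 other named genes with ratios at all 4 times, those closest to each member were named by root mean square difference over the 4 arrays. OPCL1 was closest to AT5G54170 at 0.218 log2, followed by AT4G20840 at 0.277 and AT4G20830 at 0.294, both of which encode berberine bridge enzyme-like oxidases. AT5G05600 was closest to AT3G28220, a gene of the TRAF-like family, at 0.520, and then to the jacalin-type lectin gene AT1G52000 at 0.859. FAMT was closest to AT1G52000 at 0.753 and AT2G38240 to AT1G66760, a MATE-type efflux carrier gene, at 0.618. The FAMT ratios include fed spots with saturated pixels, and those of AT2G38240 rest on untreated spots not above background. Distances were taken after loess alone, so whether the nearest genes hold under other processing was not tested. The nearest gene lay closer to OPCL1 than to any of the other 3 members with a ratio at all 4 times.

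The rest of the jasmonate pathway was thinly covered. Of 24 genes listed for jasmonate synthesis, OPCL1 was the 1 named on the array, and it passed. Of 14 listed for jasmonate breakdown and modification, 3 were named, AT5G05600, AT2G38240 and JMT. Of those 3, 2 were tested and AT5G05600 passed. Of 18 genes listed for jasmonate perception and signalling, 0 were named. ORA47, a regulator of jasmonate synthesis that is on no list and was looked up after the array's gene names were seen, had 0 usable spots on every array. Among related enzymes, OPCL1 was the 1 named of 12 listed coenzyme A ligases, the hydroxylases were the 2 named of 19 listed oxoglutarate-dependent dioxygenases, and JMT and FAMT were the 2 named of 23 listed SABATH genes.

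Of 8 genes listed as jasmonate-responsive, 2 were named on the array and 0 passed. THI2.1, a thionin gene, had log2 ratios of -0.90, -0.02, -0.54 and 2.55 at 2, 5, 10 and 24 h, with a mean of 0.27 ± 0.54 (moderated SE, limma adjusted p = 0.698). PDF1.2, a plant defensin gene, had -0.31, -0.58 and 2.82 at 5, 10 and 24 h, with a mean of 0.64 ± 0.67 (moderated SE, 3 arrays, limma adjusted p = 0.460). After loess, the usable ratios of both were above 0 only on the 24 h array, where OPCL1 stood at 1.49, AT5G05600 at 4.71 and FAMT at 3.22. PDF1.2 had no usable spot at 2 h. These signs are relative to clones of like brightness, and neither gene was followed under the alternatives.

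The root-expressed genes also had their highest ratios at 24 h for 2 of the 3 tested. PYK10, a beta-glucosidase gene, had log2 ratios of -0.27, 0.42 and 2.86 at 2, 5 and 24 h, and BGLU22 had -0.58, 0.41 and 1.82. The ratios at 10 h lay between those at 5 h and 24 h for both. At 2 h, where both were below 0, OPCL1 stood at 1.86, AT5G05600 at 3.72 and FAMT at 4.07.

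Loess sets each ratio against clones of like brightness on the same array, whose clones were picked for a link to stress. Relative to the lambda DNA spots, the median tested clone lay 0.66, 1.62, 1.19 and 1.13 log2 higher in fed plants at 2, 5, 10 and 24 h, and relative to alpha tubulin 0.84, 1.31, 0.94 and 1.71 higher. On the lambda scale 537 clones were called higher and 25 lower, against 182 higher and 197 lower with loess, and the alpha tubulin scale gave 538 higher and 17 lower. The 4 members with a mean were higher in fed plants on both scales. Without a dye swap, a clone that takes up 1 dye better than the other cannot be told apart from a clone that differs between fed and untreated plants.

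**Figure D4:**
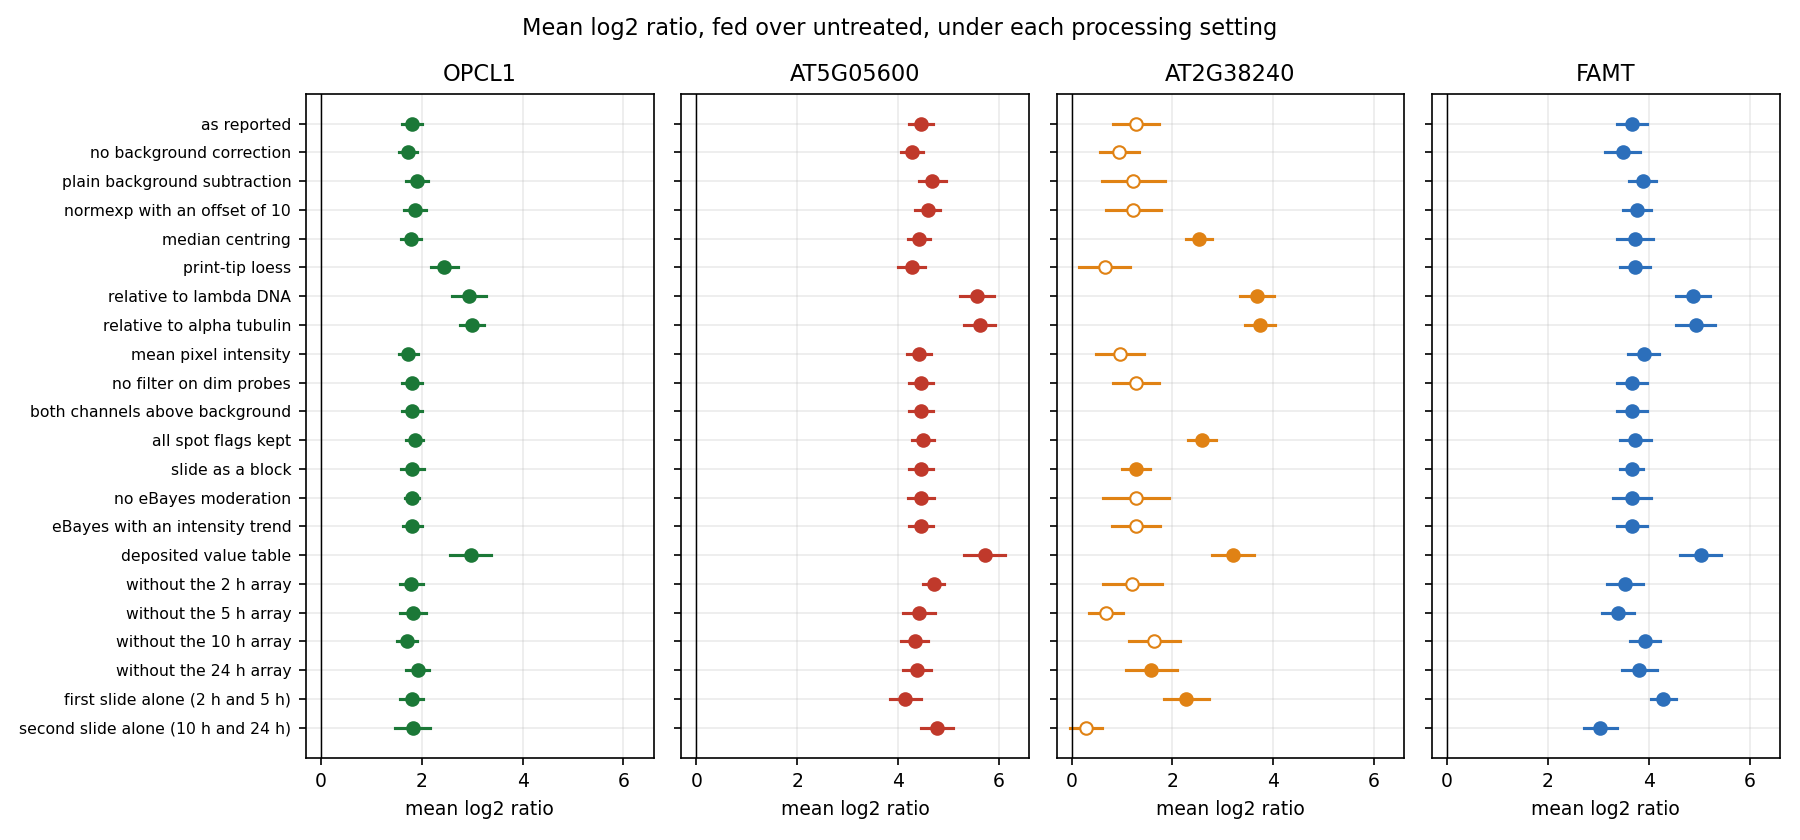
Mean log2 ratio of fed over untreated plants with its SE for the 4 genes that have a mean, under the reported processing (top) and each alternative. Filled points passed an adjusted p of 0.05 and open points did not: OPCL1, AT5G05600 and FAMT are filled throughout, with means from 1.70 to 3.00, 4.15 to 5.72 and 3.04 to 5.03, while AT2G38240 runs from 0.28 to 3.74 and passes in 8 of its 20 alternatives.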

How the data were processed

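Per the labels, fed (Cy5) and untreated (Cy3) polyA RNA was hybridized without dye swap and scanned, and the value of a spot is the median over its pixels. The deposited scanner files hold foreground and background intensity on a linear scale and the percent of saturated pixels per spot. A deposited value table holds natural log values whose scale, centring and direction are not stated. Against the scanner's log ratios its columns had slopes of 0.988, 0.984, 0.968 and 0.962 and medians of 0.305, 1.20, 0.623 and 0.867. It was taken as ln(Cy5/Cy3) and served as an alternative.

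Computations used R 4.3.3 and limma 3.58.1. Spots of scanner flag 3 were used, because spots of other flags were dimmer. The files do not define the flags, and keeping all of them changed the call of AT2G38240 and gave JMT a mean. Control spots and 28 spots of other names were left out. Background was corrected with normexp (offset 50), ratios were normalized by loess within arrays and spots averaged. Loess takes up part of a change that many clones of like brightness share. A clone counted as above background when at least 50% of its usable spots exceeded background by 2 background SD, and was tested when that held for either channel on 2 or more arrays. The 4 arrays were fitted as an intercept, or with log2 hours on at least 3 arrays, with eBayes and Benjamini-Hochberg adjustment over all clones tested. The steps were run on simulated log2 ratios with independent errors per array, and on spots of bright clones with a known ratio added. Neither was a check of dye bias, shared slides, dim spots or saturation. The 2 h and 5 h arrays shared a slide, as did 10 h and 24 h, and no time has a replicate array. Long cDNA clones can also bind transcripts of close relatives.

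Named were the 5 genes, the members of the lists, and the 3 nearest named genes per member by root mean square difference, of which some are given. The members and lists were chosen with earlier results of these data known. No coordinates are given, since no source used here names the build.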

Additional observations from a re-analysis of the deposited data

Results flagged for a closer look

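After loess, ratios of opposite sign at different times were found in 4 listed genes, and these differences between times were not tested. The share of all clones with such a change is not given. The signs depend on where 0 is set. Relative to lambda DNA the median tested clone lay 0.66, 1.62, 1.19 and 1.13 log2 higher in fed plants at 2, 5, 10 and 24 h. THI2.1 had a log2 ratio, fed over untreated, of -0.90 at 2 h and 2.55 at 24 h. PDF1.2 had -0.58 at 10 h and 2.82 at 24 h. PYK10 had -0.27 at 2 h and 2.86 at 24 h, and BGLU22 had -0.58 at 2 h and 1.82 at 24 h.

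Signal above background was also present in fed plants in spots whose scanner flag was not used. The first AT2G38240 spot at 24 h read 501 scanner units in fed plants, over a background of 184. Untreated plants read 159 there, over a background of 116. The JMT spots at 2 h read 389 and 346 in fed plants, over backgrounds of 191 and 178. Untreated plants read 181 and 187, over backgrounds of 110 and 114. The untreated channel was not above background in any of these spots, so no fold is read from them.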

How the results depend on the processing

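OPCL1, AT5G05600 and FAMT means passed in all 21 alternatives, with a highest limma adjusted p of 0.0267, 0.0155 and 0.0260. Relative to lambda DNA and in the deposited table these genes shared 1 moderated SE, so passing there does not carry each gene's own spread. The alternative with no filter on dim probes tested the same 806 clones and gave the same values, so it adds no check. The mean of AT2G38240 passed with median centring (2.53), relative to lambda DNA (3.68) and alpha tubulin (3.74), with all flags kept (2.58), with slide as a block (1.28, limma adjusted p = 0.00322), in the deposited table (3.20) and, added after seeing the data, on the first slide alone (2.27). Leaving out 1 array gave 0.68 to 1.64, and the value without 24 h (1.58) passed. The count of 379 changed clones was 172 without eBayes, 222 to 320 leaving out 1 array (222 without 5 h), and 206 and 161 on the first and second slide alone. In the deposited table, 454 clones were higher and 31 lower. The trend count of 0 was 2 relative to lambda DNA or alpha tubulin, 1 in the deposited table and 0 to 56 leaving out 1 array (56 without 24 h). Trends that did not pass changed sign: OPCL1 to 0.0642 relative to alpha tubulin (-0.13 to 0.11 leaving out 1 array), and with slide as a block AT2G38240 to 0.69 and FAMT to 0.30. The cause was not tested. AT2G38240 gave no value where both channels had to be above background. JMT at 5 h ranged from 0.43 to 2.96. Each ratio already sets fed against untreated plants on 1 array, so the reported fit held no further pairing. The slides that arrays shared were entered as a block only in the setting named for it. The number of arrays, and for AT2G38240 and JMT the signal over background, limits the precision.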
